A study of Mus musculus with 3 samples.

Results

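The genes followed here were 10 members of the BCL2 family, which sets whether a cell keeps or breaks its mitochondria. They were matched by symbol in the gene list of each library: the inhibitors of cell death Bcl2, Bcl2l1 (Bcl-xL), Mcl1, Bcl2a1b and Bcl2a1d (2 copies of A1), the effectors Bax and Bak1, and the BH3-only genes Bcl2l11 (Bim), Bbc3 (Puma) and Pmaip1 (Noxa). All 10 were found among the 30406 gene identifiers shared by the 3 libraries. Messenger RNA was counted in single thymic cells by droplet sequencing, and a unique molecular identifier (UMI) is the tag by which each captured transcript is counted 1 time. The C57BL/6 library came from C57BL/6 mice, which the labels title WT, at 7 weeks and without bone marrow transplantation (BMT). The BM only library (non-GVHD) came from F1 mice of a C57BL/6 x BALB/c cross that had been lethally irradiated and given C57BL/6 marrow from which T cells had been removed, and the BM + Spl library (GVHD, graft-versus-host disease) from such F1 mice given the same marrow together with C57BL/6 splenic cells. Both BMT libraries are labelled 16 weeks, 9 weeks after BMT. In all 3, thymocytes were depleted of CD8+ cells on beads and sorted as TCRβ+CD1d-tetramer+CD24-NK1.1- cells, a gate meant for invariant natural killer T (iNKT) cells that have not reached the NK1.1+ stage. Each condition was 1 library, so no difference between conditions has a replicate check and no test was made. Whether a cell derived from the host, the marrow or the spleen graft was not analysed here.

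In the mitochondrial route to apoptosis, Bax and Bak1 open the outer membrane of the mitochondrion and release cytochrome c. The inhibitors hold Bax and Bak1 and the BH3-only proteins, and Bim, Puma and Noxa bind the inhibitors, Noxa mainly Mcl1 and A1. In T lineage cells, interleukin-7 and interleukin-15 are known to support Bcl2, T cell receptor signals to induce Bcl2l1 and A1, and Bim to mediate deletion of strongly self-reactive thymocytes. Thymic iNKT cells branch into NKT1 cells (T-bet, interferon-γ), NKT2 cells (high PLZF, interleukin-4) and NKT17 cells (interleukin-17), and NKT1 cells are the branch that relies most on interleukin-15.

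Cells with more than 200 and fewer than 6000 detected genes and under 10% mitochondrial UMIs were kept, which left 4434 C57BL/6, 5970 BM only and 5557 BM + Spl cells, with medians of 12086.5, 4740 and 6495 UMIs. Cells were sorted into gates by marker genes, none of them a member, and a gate is named for its markers only. In that order of the libraries, NKT1-gated cells numbered 1198, 2709 and 928, and NKT2-gated cells 1757, 777 and 1351. Of the NKT1-gated cells with a T cell receptor V beta segment assigned, 92.2%, 91.4% and 41.2% carried a segment typical of iNKT cells. Most of those in BM + Spl thus did not match the sorted identity. Such a segment alone does not mark a cell as iNKT. Treg-gated cells carried one in 28.9% and 28.2% of assigned cells of BM only and BM + Spl, and CD8-gated cells in 38% and 36.9%. The sum of the A1 copies in NKT1-gated cells, the marker steps and the pathway counts are given again for cells with an iNKT V beta. So are the members' ratios of NKT1-gated over NKT2-gated cells, and of BM + Spl over BM only in these gates and the NKT17 gate. The orders of the gates and the likeness of patterns are given for whole gates only. The same holds for NKT17-gated, Treg-gated and cycling cells over NKT2-gated cells. Regulatory T cell (Treg)-gated cells were 621 and 680 in the BMT libraries against 2 in C57BL/6, although all 3 were sorted alike. Over all kept cells with a V beta assigned, 91.1%, 79.4% and 60.7% carried an iNKT V beta in the same order, and the NKT17-gated cells of BM + Spl 35.5%. BM + Spl also held 420 plasmacytoid dendritic cell-gated cells, 310 CD8-gated cells despite the CD8 depletion, 61 B cell-gated and 30 myeloid-gated cells, and BM only held 196, 127, 80 and 38 of these. Zbtb16, which encodes PLZF, stood at 303.8, 143 and 164 CPM (UMIs per 1000000) in the 3 libraries, and at 28.2 CPM in the 1673 BM + Spl cells with another V beta. The T cell gene Cd3e stood at 396, 1076 and 878 CPM. The BM only and BM + Spl libraries shared 43 cell barcodes. The C57BL/6 library differed from both others in software version, gene list, median depth, V beta detection (19.3% of cells against 77.3% and 76.6%) and mitochondrial share (6.48% against 0.687% and 0.511%), none of which can be told apart from transplantation, strain or age, so its levels are given beside the others and compared only within the library.

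Bcl2a1b and Bcl2a1d are the members whose counts are least certain, because A1 is a family of near-identical copies. On mouse build GRCm38, Bcl2a1d lies at chr9:88723285-88731914 on the minus strand and Bcl2a1b at chr9:89199209-89207827 on the plus strand, with the copy Bcl2a1a, which is no member, between them at chr9:88956900-88962419. Over 519 coding bases, Bcl2a1b and Bcl2a1d differed at 6 positions (98.8% identical), Bcl2a1b and Bcl2a1a at 11, and Bcl2a1d and Bcl2a1a at 7. The first 120 coding bases, from the GENCODE vM21 transcripts, hold 7 of the 12 positions at which the 3 copies are not all alike. They are shown because a read within the coding bases has to cover such a position to tell the copies apart. Whether reads reached this stretch is not known, as the kit of each library is not given. Capitals mark the positions at which the copies are not all alike.
Bcl2a1b: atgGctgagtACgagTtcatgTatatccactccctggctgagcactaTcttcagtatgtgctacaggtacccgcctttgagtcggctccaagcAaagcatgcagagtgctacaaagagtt
Bcl2a1d: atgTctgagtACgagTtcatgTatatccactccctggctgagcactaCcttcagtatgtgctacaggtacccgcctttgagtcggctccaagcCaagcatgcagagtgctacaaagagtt
Bcl2a1a: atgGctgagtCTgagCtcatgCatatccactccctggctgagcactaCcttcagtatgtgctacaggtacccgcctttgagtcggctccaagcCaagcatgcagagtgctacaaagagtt
Of all 90-base windows of the Bcl2a1b transcript, 36.1% occurred exactly in another copy, and 61.6% of those of Bcl2a1d. Within the last 300 bases the shares were 50.2% and 89.6%. A value for 1 copy is therefore uncertain. The sum over the copies is given for NKT1-gated over NKT2-gated cells, and between the BMT libraries for NKT1-gated and for all NKT17-gated cells.

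The promoters of 4 members with differences below are shown: Bcl2 and Bcl2l11 between NKT1-gated and NKT2-gated cells, and the A1 copies between the BMT libraries. Bcl2l1 and Pmaip1, whose promoters are not shown, also differed between the BMT libraries. The promoters shown are from RefSeq on GRCm38.p6, end where the transcript annotation begins, and are written in the direction of the gene. Bcl2 (chr1:106714291-106714540, minus strand) and Bcl2l11 (chr2:128125788-128126037, plus strand) have GC-rich promoters, of 74.8% and 72.0% GC over 250 bases. Those of Bcl2a1b (chr9:89199023-89199208, plus strand) and Bcl2a1d (chr9:88731915-88732100, minus strand) hold 45.7% and 41.9% GC over 186 bases. Capitals mark a FOXO motif (GTAAACA) in Bcl2l11. In both A1 copies they mark TGAATCA, a match to a loose AP-1 motif (TGANTCA) in which N is any base.
Bcl2: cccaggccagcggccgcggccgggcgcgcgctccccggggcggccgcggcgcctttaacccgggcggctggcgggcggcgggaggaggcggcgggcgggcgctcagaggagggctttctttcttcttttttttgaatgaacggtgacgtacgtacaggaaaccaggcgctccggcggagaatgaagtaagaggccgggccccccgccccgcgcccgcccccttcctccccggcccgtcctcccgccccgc
Bcl2l11: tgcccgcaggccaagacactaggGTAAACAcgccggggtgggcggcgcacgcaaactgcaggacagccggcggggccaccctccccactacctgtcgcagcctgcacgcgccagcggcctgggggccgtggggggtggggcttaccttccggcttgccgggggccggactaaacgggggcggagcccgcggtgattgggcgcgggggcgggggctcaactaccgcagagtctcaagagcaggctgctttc
Bcl2a1b: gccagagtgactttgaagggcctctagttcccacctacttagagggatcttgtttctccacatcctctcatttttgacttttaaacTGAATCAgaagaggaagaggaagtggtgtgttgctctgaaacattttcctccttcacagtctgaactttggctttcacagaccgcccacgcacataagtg
Bcl2a1d: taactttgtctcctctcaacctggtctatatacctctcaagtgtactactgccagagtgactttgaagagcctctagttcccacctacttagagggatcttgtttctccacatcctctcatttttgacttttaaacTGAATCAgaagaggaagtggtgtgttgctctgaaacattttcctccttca
On either strand, the AP-1 motif was in 7.81% and the FOXO motif in 3.65% of 32851 mouse promoters, each taken from 250 bases before to 50 bases after the start. Of 14 promoters of the members other than Pmaip1, whose sequence is not shown, 2 held the AP-1 motif (Bcl2a1b and Bcl2a1d) and 2 the FOXO motif (Bcl2l11 and Bbc3). The promoters of Bcl2a1b and Bcl2a1d were 96.5% identical where aligned, so their AP-1 matches are not separate. An NF-kB consensus, in 1.63% of all promoters, was in those of Bcl2l1, Mcl1 and Bbc3. The STAT motif (TTCNNNGAA, 8.3% of all promoters) and the T-box motif (TCACACCT, 1.28%) were in 0 of the 14. For p53, only a fixed spelling of a half-site was searched, with no variable bases. It was in 17 of 32851 promoters (0.0517%) and in 0 of the 14. A word this rare could hardly be met among 14 promoters. Its absence therefore does not show that any member lacks a p53 half-site. All the motif matches above are letter matches within a short window and say nothing of binding.

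The first comparison asked how the members differed between NKT1-gated and NKT2-gated cells of 1 library, where kit, software and reference are shared. Bcl2 and its antagonist Bcl2l11 were both several times higher in NKT1-gated cells in each library, while Mcl1 (ratios of 1.48 to 1.83) passed 1.5-fold in both BMT libraries, the effector Bak1 (0.559 to 0.770) in BM only and Bax (0.745 to 0.919) in none. A member was counted as higher or lower when its CPM differed by 1.5-fold or more, with at least 50 UMIs over both pools. Intervals, at 95%, are exact and cover counting error only, not differences between mice or libraries. In C57BL/6, 3 of 9 members with enough UMIs were higher and 0 lower, against 12.4% of all genes higher and 11.7% lower. In BM only, 6 of 10 were higher and 1 lower (18.1% and 14% of all genes), and in BM + Spl 7 of 10 were higher and 0 lower (19% and 11.7%). Only Bcl2 and Bcl2l11 were higher in each of the 3 libraries, 2 of 9 members against 7.04% of all genes, and 0 members were lower in all 3 (4.32%). The median log2 ratio over the counted members was 0.56 in C57BL/6, 0.73 in BM only and 0.95 in BM + Spl, beside 0.02, 0.00 and 0.06 over all genes counted.

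**Figure D1:**
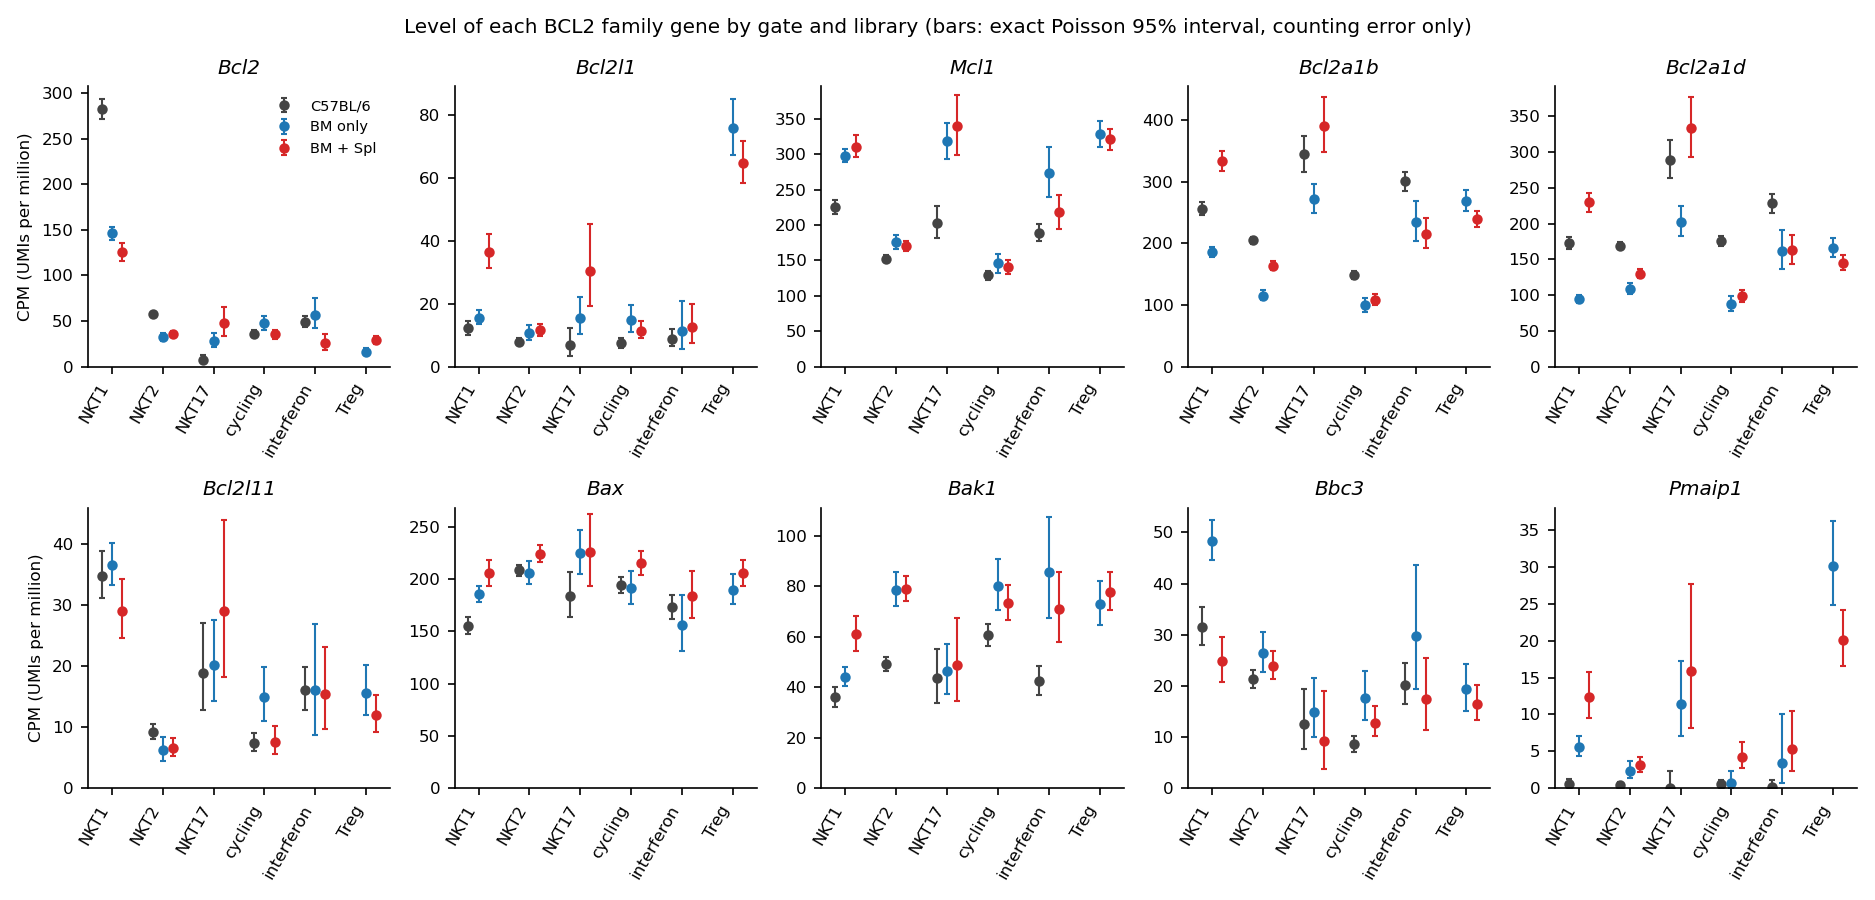
Level of each of the 10 members (CPM, linear axis from 0, 1 panel a gene) in the NKT1, NKT2, NKT17, cycling, interferon and Treg gates (x axis) of the 3 libraries (colours), with exact 95% Poisson intervals that cover counting error only. Bcl2 stood at 282, 146 and 125 CPM in NKT1-gated cells of C57BL/6, BM only and BM + Spl, against 57.4, 32.4 and 35.8 CPM in NKT2-gated cells.

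Among the inhibitors, Bcl2 stood at 282 CPM in NKT1-gated and 57.4 CPM in NKT2-gated cells of C57BL/6, a log2 ratio of 2.30 (2.21 to 2.39). In BM only the levels were 146 and 32.4 CPM (2.17, 1.97 to 2.38) and in BM + Spl 125 and 35.8 CPM (1.81, 1.63 to 1.99). In C57BL/6 no other gate reached the NKT1-gated level, with NKT2-gated and interferon-gated cells (49.4 CPM) next and not apart from each other. In the BMT libraries CD8-gated cells, at 139 and 127 CPM, did not differ from NKT1-gated cells beyond their intervals, and every other gate was lower. Mcl1, a short-lived inhibitor that most lymphocytes need, stood at 225 against 152 CPM in C57BL/6, 298 against 175 CPM in BM only and 311 against 170 CPM in BM + Spl, which are ratios of 1.48, 1.70 and 1.83. The A1 copies did not differ alike between these gates. Bcl2a1b was 1.25, 1.61 and 2.03 times as high in NKT1-gated as in NKT2-gated cells of the 3 libraries, while Bcl2a1d had ratios of 1.02, 0.867 and 1.77. The sum of Bcl2a1a, Bcl2a1b and Bcl2a1d stood at 429 against 375, 280 against 225 and 578 against 299 CPM. It fell short of 1.5-fold in BM only, so the call of Bcl2a1b there rests on 1 copy. Among cells with an iNKT V beta the sum had a ratio of 1.24 in BM only and 2.25 in BM + Spl. Bcl2l1 stood at 12.2 against 7.85 CPM in C57BL/6, 15.6 against 10.7 CPM in BM only and 36.6 against 11.5 CPM in BM + Spl, so that its ratio of 3.17 in BM + Spl stood above 1.55 and 1.46 in the other libraries.

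Among the genes that promote death, Bcl2l11 stood at 34.7 CPM in NKT1-gated and 9.22 CPM in NKT2-gated cells of C57BL/6, at 36.5 and 6.19 CPM in BM only and at 29.1 and 6.62 CPM in BM + Spl. The log2 ratios were 1.91 (1.67 to 2.16), 2.56 (2.11 to 3.05) and 2.13 (1.74 to 2.54), on 43 to 448 UMIs a pool. Bcl2 and its antagonist Bcl2l11 were thus higher together in NKT1-gated than in NKT2-gated cells. NKT2-gated cells had the lowest Bcl2l11 of the gates in both BMT libraries, but their interval overlapped that of the next gate. This was the B cell gate (10.6 CPM) in BM only and the cycling gate (7.57 CPM) in BM + Spl. In C57BL/6 cycling cells were lowest (7.40 CPM), not apart from NKT2-gated cells. High levels of Bcl2 and Bcl2l11 were not particular to the NKT1 gate. CD8-gated cells, whose Bcl2 is given above, held Bcl2l11 at 37.0 CPM in BM only, not apart from NKT1-gated cells, and at 23.0 CPM in BM + Spl. NKT17-gated cells of BM + Spl held Bcl2l11 at 29.0 CPM. Bbc3 was 1.48 and 1.84 times as high in NKT1-gated cells of C57BL/6 and BM only and stood at 24.9 against 23.9 CPM in BM + Spl. With every cell thinned to 2000 UMIs the log2 ratio of Bbc3 in BM + Spl was 0.95 in place of 0.06, which passed the rule. Bak1 was lower in NKT1-gated cells, at 35.9 against 49.1, 44.0 against 78.6 and 60.9 against 79.1 CPM, and passed 1.5-fold in BM only (ratio 0.559). Bax stood at 155 against 208, 186 against 206 and 206 against 224 CPM, ratios of 0.745, 0.900 and 0.919. Pmaip1 was near the limit of counting in C57BL/6, with 5 and 12 UMIs, and stood at 5.62 against 2.30 CPM in BM only and 12.3 against 3.08 CPM in BM + Spl.

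**Figure D2:**
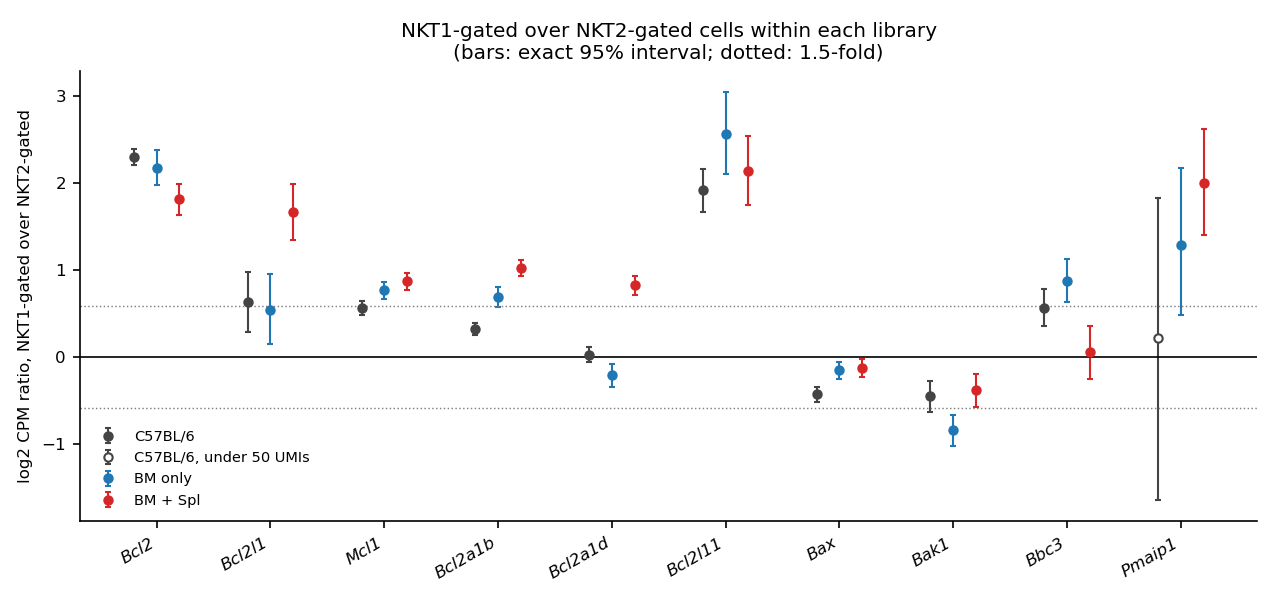
Log2 CPM ratio (y axis) of each member (x axis), NKT1-gated over NKT2-gated cells, in each library with exact 95% intervals (counting error only). Points above 0 are higher in NKT1-gated cells: Bcl2 lies at 2.30, 2.17 and 1.81 and Bcl2l11 at 1.91, 2.56 and 2.13, while Bax and Bak1 lie below 0 in all 3 libraries.

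Among cells with an iNKT V beta, the Bcl2 ratio was 4.49 in BM only and 2.76 in BM + Spl, and the Bcl2l11 ratio 6.50 and 4.10. In this restricted BM + Spl comparison Bcl2l1 reached 4.49-fold, Bcl2a1b 2.32-fold, Bcl2a1d 2.14-fold and Mcl1 1.91-fold, while Bbc3 had a ratio of 0.995 (15.7% of all genes higher, 11.8% lower). In BM only Mcl1 (1.69), Bcl2a1b (1.62) and Pmaip1 (1.95) passed as higher too. Bbc3 stood there at 49.7 against 24.8 CPM and Bak1 had a ratio of 0.569 (17.6% and 14.5%). NKT2-gated cells held more UMIs than NKT1-gated cells, with medians of 13923 against 6670 in C57BL/6, 8665 against 4329 in BM only and 9283 against 4504 in BM + Spl. Where the gates were set on cells thinned to 2000 UMIs each, the C57BL/6 count became 6 members: Bcl2, Bcl2l1, Mcl1, Bcl2l11 and Bbc3 higher and Bak1 lower. The share over all genes is not given for that run, so this count shows only which calls moved. Bcl2 and Bcl2l11 stayed on the higher side in all 3 libraries under every alternative run, with log2 ratios of Bcl2 from 1.43 to 2.48.

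Counting markers within a library gave the same pattern in steps. Markers were counted after thinning each cell to 2000 UMIs, and levels were taken from all UMIs of the cells at a step. Bcl2 in C57BL/6 stood at 49.6 CPM in cells with 0 of the 6 NKT1 markers and at 499 CPM in the 55 cells with 5, and Bcl2l11 at 9.2 and 54.6 CPM. In BM only, Bcl2 stood at 33.4, 48.4, 108 and 143 CPM with 0, 1, 2 and 3 markers. It stood at 146, 147 and 137 CPM with 4, 5 and 6, the last from 46 cells. Bcl2l11 stood at 32.9, 34.3, 36.5 and 36.3 CPM with 2 to 5 markers in BM only. In the 46 cells with 6 it stood at 76.3 CPM, on 15 UMIs. In BM + Spl, Bcl2 stood at 44.7, 60.5, 92.4, 109, 141 and 160 CPM with 0 to 5 markers, the last from 33 cells. Bak1 went the other way in BM only, from 74.3 CPM with 0 markers to 35.7 CPM with 5. In BM + Spl it went from 76.2 to 41.3 CPM, the last on 8 UMIs with an interval (17.8 to 81.3 CPM) that includes the first. In C57BL/6 the fall was not steady, with Bak1 at 49.6, 55.3, 41.9, 29.6, 32.5 and 38.2 CPM with 0 to 5 markers. Bbc3 stood at 21.9 CPM with 0 markers and 49.5 CPM with 3 in BM only, and at 19.1 and 24.0 CPM in BM + Spl. The share of assigned cells with an iNKT V beta was lowest at 2 markers in BM + Spl (40.3%) and at 1 marker in BM only (70.4%), so the steps were repeated in cells with an iNKT V beta. There Bcl2 stood at 35.7, 37.1, 75.4, 80.2 and 106 CPM with 0 to 4 markers in BM + Spl (40 cells at 4), and at 30.3 CPM with 0 and 150.0 CPM with 4 in BM only. Bcl2l11 stood at 7.13 and 62.6 CPM with 0 and 4 markers in BM + Spl, the latter on 13 UMIs. In BM only, Bcl2l11 with 6 markers stood at 41.8 CPM on 7 UMIs. Bbc3 with 3 markers stood at 17.6 CPM on 9 UMIs in BM + Spl against 49.7 CPM in BM only.

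**Figure D3:**
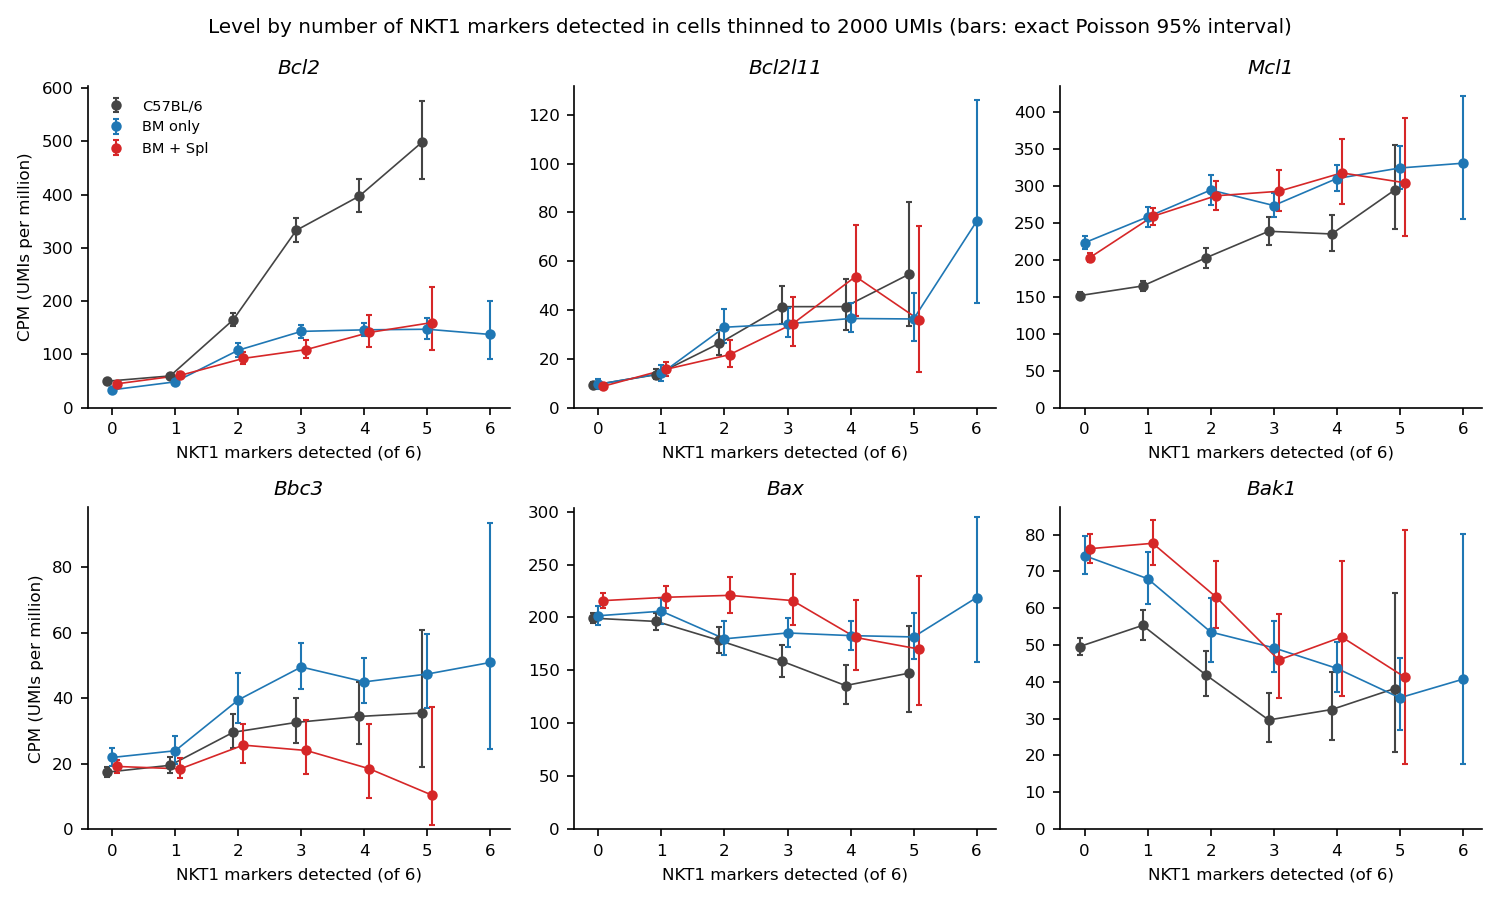
Level of Bcl2, Bcl2l11, Mcl1, Bbc3, Bax and Bak1 (CPM from all UMIs, linear axis from 0) by how many of the 6 NKT1 marker genes were detected in a cell after thinning to 2000 UMIs (x axis), in each library (colours), with exact 95% Poisson intervals. Bcl2 in C57BL/6 lies at 49.6 CPM with 0 markers and 499 CPM with 5, and in BM only levels off near 146 CPM from 4 markers.

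The next comparison asked what set the NKT1-gated cells of BM + Spl, the graft that contained splenic cells, apart from those of BM only. The inhibitors other than Bcl2 and Mcl1 were higher in BM + Spl, Pmaip1 was higher and Bbc3 lower. By the 1.5-fold rule 4 of 10 members were higher and 1 lower, against 11.8% of all genes higher and 10.4% lower. Bcl2l1 stood at 36.6 CPM in BM + Spl and 15.6 CPM in BM only, a log2 ratio of 1.24 (0.94 to 1.54). Bcl2a1b stood at 333 and 186 CPM (0.84, 0.75 to 0.93) and Bcl2a1d at 230 and 94.2 CPM (1.29, 1.17 to 1.41). Pmaip1 stood at 12.3 and 5.62 CPM on 62 and 69 UMIs (1.13, 0.62 to 1.65). Bbc3 was the member on the other side, at 24.9 CPM in BM + Spl and 48.4 CPM in BM only (-0.96, -1.25 to -0.68), though in cells thinned to 2000 UMIs its log2 ratio was -0.46 and no longer passed. Bcl2 (125 and 146 CPM), Mcl1 (311 and 298 CPM), Bcl2l11 (29.1 and 36.5 CPM), Bax (206 and 186 CPM) and Bak1 (60.9 and 44.0 CPM) did not pass 1.5-fold.

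**Figure D4:**
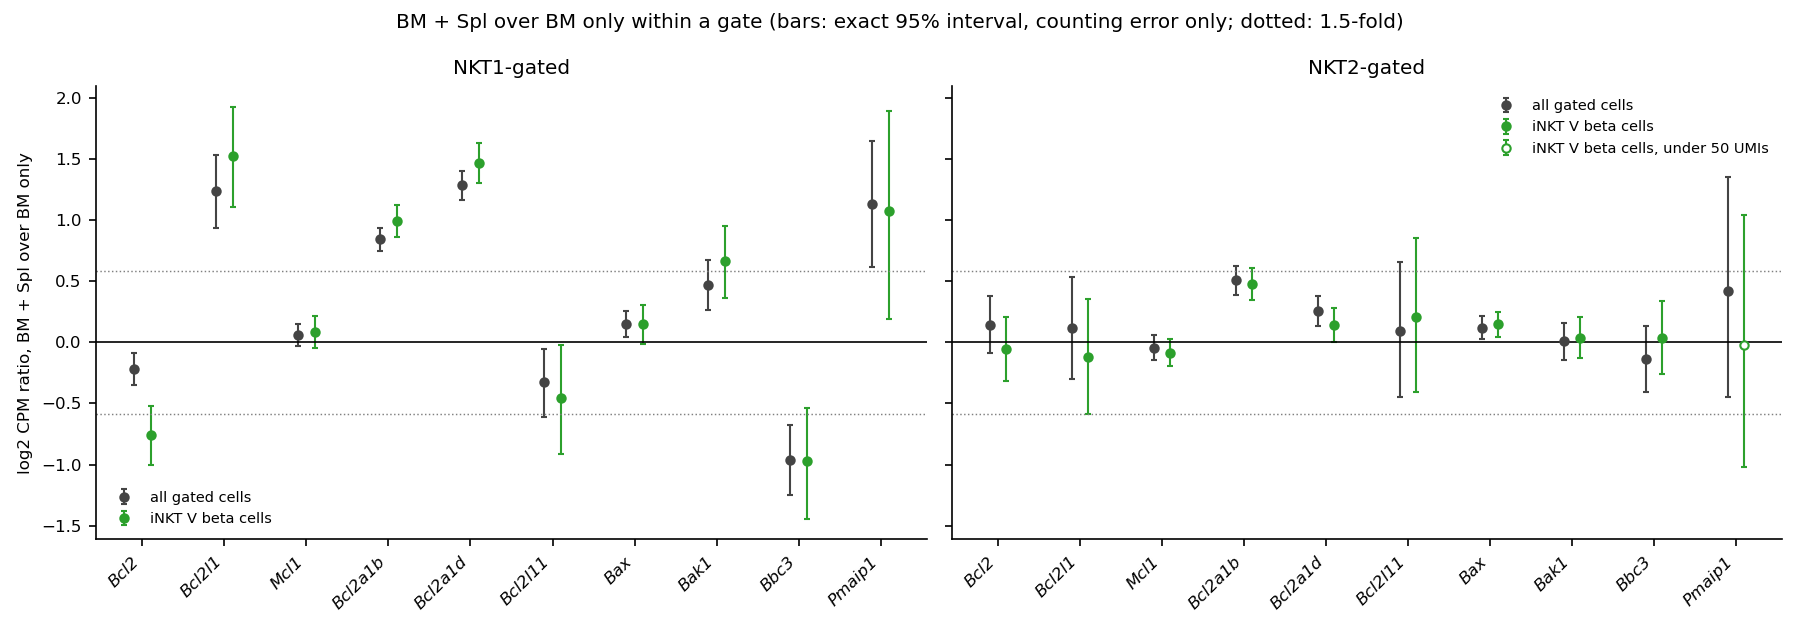
Log2 CPM ratio (y axis) of each member (x axis), BM + Spl over BM only, in NKT1-gated (left) and NKT2-gated cells (right), for all gated cells (black) and those with an iNKT V beta (green), with exact 95% intervals (counting error only, 1 library a condition) and dotted lines at 1.5-fold. Over all NKT1-gated cells Bcl2l1 (1.24), Bcl2a1b (0.84), Bcl2a1d (1.29) and Pmaip1 (1.13) lie above the upper line and Bbc3 (-0.96) below the lower one. Of all genes 11.8% were higher and 10.4% lower there. In NKT2-gated cells 0 of 10 members passed 1.5-fold, near the 2.09% of all genes higher and 2.46% lower.

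Bcl2 depended on which cells of the NKT1 gate were taken. Among the 2061 BM only and 323 BM + Spl NKT1-gated cells with an iNKT V beta, it stood at 146 CPM in BM only and 86.5 CPM in BM + Spl, a ratio of 0.590 that passed the rule, against 0.859 over the whole gate. How many of these 323 cells were iNKT cells cannot be told from the V beta alone. Within the BM + Spl library, the 461 NKT1-gated cells with another V beta held Bcl2 at 154 CPM, 1.78 times the 86.5 CPM of those with an iNKT V beta (5.97% of all genes higher by the rule, 4.05% lower). These cells had Zbtb16 at 7.9 CPM against 82.6 CPM, and the NKT1 marker Klrd1 at 421 against 414 CPM. In BM only, where 193 NKT1-gated cells had another V beta, Bcl2 stood at 166 against 146 CPM, and the members past the rule were Bcl2l1 (1.71-fold) and Pmaip1 (2.27-fold on 9 and 44 UMIs), 2 of 10 higher and 0 lower against 7.92% and 8.24% of all genes. The other members kept their sides among cells with an iNKT V beta: Bcl2l1 (15.3 CPM in BM only, 44.1 CPM in BM + Spl, ratio 2.88), Bcl2a1b (1.99), Bcl2a1d (2.76) and Pmaip1 (2.10) were higher in BM + Spl, Bbc3 (0.510) was lower, and Bak1 (1.58) now passed as well. That made 5 higher and 2 lower of 10, against 10.2% and 12.6% of all genes.

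The sum of the A1 copies Bcl2a1a, Bcl2a1b and Bcl2a1d does not depend on which of these copies a read was given to. It leaves out Bcl2a1c, and how reads that match several copies were counted was not examined. The sum stood at 280 CPM in NKT1-gated cells of BM only, 578 CPM in BM + Spl and 429 CPM in C57BL/6. Bcl2a1a took very unequal parts of it, with 0 UMIs in C57BL/6, 2 UMIs in BM only (0.163 CPM) and 73 UMIs in 39 cells of BM + Spl (14.5 CPM). In NKT17-gated cells Bcl2a1a stood at 12.6, 33.1 and 25.1 CPM in C57BL/6, BM only and BM + Spl. The higher A1 level of NKT1-gated cells in BM + Spl was thus present in the sum. The sum is made up almost wholly of Bcl2a1b and Bcl2a1d, so it is no separate support for them. Among NKT1-gated cells with an iNKT V beta the sum stood at 639 CPM in BM + Spl and 279.8 CPM in BM only, and Bcl2a1a had 18 and 1 UMIs.

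In NKT2-gated cells 0 of 10 members passed 1.5-fold between BM + Spl and BM only. This is near the shares of all genes, 2.09% higher and 2.46% lower, so the count is no result about the members. The member nearest to it was Bcl2a1b, at 164 and 115 CPM (log2 ratio 0.51, 0.39 to 0.63), with Bcl2a1d at 1.19-fold. Among cells with an iNKT V beta, 0 of 9 counted members passed (1.58% and 3.02%). In NKT17-gated cells, 132 in BM + Spl and 361 in BM only, 3 of 8 counted members were higher and 0 lower (7.2% and 10.1% of all genes). They were Bcl2, at 47.5 and 28.4 CPM on 36 and 55 UMIs, Bcl2l1, at 30.3 and 15.5 CPM on 23 and 30 UMIs, and Bcl2a1d, at 334 and 203 CPM. The sum of the A1 copies in these NKT17-gated cells stood at 749 and 508 CPM, short of 1.5-fold, so the call of Bcl2a1d rests on 1 copy. Among NKT17-gated cells with an iNKT V beta, 38 against 193, Bcl2 and Bcl2l1 had under 50 UMIs and Bcl2a1d was 1.23-fold, while Bcl2a1b stood at 1.58-fold, from fewer cells than the minimum of 50 set for a gate (8.52% of all genes higher and 9.45% lower). In cycling cells Bcl2l11 was lower in BM + Spl, at 7.57 against 14.9 CPM on 46 and 47 UMIs, 1 of 9 members (2.29% higher, 4.16% lower). In interferon-gated cells Bcl2 (26.1 against 57.1 CPM) and Bbc3 (17.4 against 29.7 CPM, an interval that spans equality) were lower, 2 of 7 (6.94% and 6.99%). Over all kept cells Bcl2l11 (14.0 against 22.0 CPM) and Bbc3 (20.1 against 31.3 CPM) were lower, 2 of 10 (6.83% higher, 8.28% lower). In such a pool, fewer NKT1 cells and less RNA per cell cannot be told apart, and NKT1-gated cells made up 2709 of 5970 cells in BM only and 928 of 5557 in BM + Spl.

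The other subsets each had their own mixture. NKT17-gated cells had the A1 copies and Bcl2l11 above NKT2-gated cells in all 3 libraries. In C57BL/6, Bcl2a1b stood at 344 against 205 CPM, Bcl2a1d at 289 against 169 CPM and Bcl2l11 at 18.9 against 9.22 CPM, while Bcl2 stood at 7.57 CPM on 12 UMIs against 57.4 CPM and Bbc3 at 12.6 against 21.3 CPM (3 of 9 higher and 2 lower, against 15.3% and 12.4% of all genes). The low Bcl2 of NKT17-gated cells did not recur in the BMT libraries, at 28.4 against 32.4 CPM in BM only and 47.5 against 35.8 CPM in BM + Spl. Of assigned NKT17-gated cells, 68.2% in BM only and 35.5% in BM + Spl carried an iNKT V beta. Among NKT2-gated cells the shares were 94.7% and 92.1%. The BMT ratios of these gates thus set unlike mixtures of cells side by side, and they were not repeated for cells with an iNKT V beta. In BM only 4 of 9 members were higher, with Mcl1 at 1.81-fold and Bcl2l11 at 3.25-fold, and 2 lower, Bak1 (0.591) and Bbc3 (0.568), against 16.1% and 12.1% of all genes. In BM + Spl 6 of 10 were higher, with Bcl2l1 at 2.63-fold and Mcl1 at 339 against 170 CPM, and 2 lower, again Bak1 (0.617) and Bbc3 (0.386), against 19.7% and 17.9%.

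Treg-gated cells had the highest Bcl2l1 of the gates compared in the BMT libraries. Bcl2l1 stood at 76.0 CPM in BM only, 7.13 times its level in NKT2-gated cells, and at 64.9 CPM in BM + Spl, 5.62 times. Pmaip1 stood at 30.2 CPM in BM only (13.1-fold on 114 and 16 UMIs) and 20.1 CPM in BM + Spl (6.54-fold). Together with Mcl1, Bcl2l11 and both A1 copies, 6 of 10 members were higher in Treg-gated than NKT2-gated cells of BM only and 1, Bcl2 at 16.2 against 32.4 CPM, lower (23.1% and 12.2% of all genes). In BM + Spl, 4 of 10 were higher and 0 lower (21.6% and 11.9%), and Bcl2 stood at 29.2 against 35.8 CPM. Cycling cells had low levels of the stress-linked Bbc3, at 0.40 and 0.54 times the NKT2-gated level in C57BL/6 and BM + Spl (2 members lower of 9 and of 10, against 11.3% and 9.06% of all genes), and at 0.67 times, short of the rule, in BM only, where Bcl2l11 was 2.40-fold higher (1 of 9, against 15.1%). In order of level, Treg-gated cells were followed for Bcl2l1 by CD8-gated cells in BM only (38.5 CPM) and NKT1-gated cells in BM + Spl (36.6 CPM), in both libraries beyond their intervals. For the sum of the A1 copies the order in BM + Spl ran from NKT17-gated (749 CPM) through NKT1-gated (578 CPM) to B cell-gated cells (482 CPM), each apart from the next, and in BM only from NKT17-gated (508 CPM) to Treg-gated cells (434 CPM), with NKT1-gated cells at 280 CPM below 4 of the other 8 gates. Bax had the flattest order of the members, from 226 CPM in NKT17-gated to 172 CPM in B cell-gated cells of BM + Spl. No neighbouring gates were apart for Bax there, which was also so for Bcl2l11, Bak1 and Bbc3. Outside the T lineage, plasmacytoid dendritic cell-gated cells had Pmaip1 at 47.9 CPM in BM only and 31.9 CPM in BM + Spl, and Bcl2a1b at 33.2 and 42.1 CPM, below every T cell gate. B cell-gated cells had Mcl1 at 533 and 486 CPM, and Bcl2l1 at 1.77 and 9.06 CPM.

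The wider pathway was read from 65 genes in 6 lists of other BCL2 family genes, caspases and the apoptosome, caspase inhibitors, death receptors, regulators of BH3-only genes and cytokine survival genes. Between NKT1-gated and NKT2-gated cells, 12 were higher and 4 lower of 56 counted in C57BL/6, 20 and 5 of 55 in BM only and 17 and 4 of 57 in BM + Spl, beside the shares of all genes given above for those comparisons. The cytokine survival list gave 6, 8 and 7 of these higher genes out of 12. It includes Socs1 and Socs3, which restrain cytokine signals, and Socs3 was 10.2-fold higher in BM only. The count is thus no measure of a raised survival route. In BM only 2 genes of the list were lower, Stat5a (0.555) and Stat5b (0.457), which relay interleukin-2, interleukin-7 and interleukin-15 signals. Among cells with an iNKT V beta, 21 pathway genes were higher and 6 lower of 55 in BM only, and 15 and 3 of 52 in BM + Spl. Fasl, the ligand of the death receptor Fas and a product of cytotoxic cells, was 47.4, 263 and 18.5 times as high in NKT1-gated cells, the second on 1397 against 3 UMIs. E2f1, a cell cycle regulator, was at 0.594, 0.404 and 0.53 times. Between BM + Spl and BM only in NKT1-gated cells, 7 of 56 were higher and 7 lower, near the shares of all genes (11.8% and 10.4%), so the count is no result about the pathway. By the naming rule, Stat5a was 2.16-fold and Naip2 2.01-fold higher in BM + Spl, and Ddit3 (0.536), the death receptor gene Tnfrsf10b (0.416) and the initiator caspase gene Casp9 (0.407) were lower. Among cells with an iNKT V beta 4 of 55 were higher and 10 lower (10.2% and 12.6% of all genes), with Stat5a at 1.83-fold, Naip2 at 1.51-fold on 17 and 58 UMIs, Ddit3 at 0.660, Tnfrsf10b at 0.381 on 6 and 81 UMIs and Casp9 at 0.436 on 5 and 59 UMIs. In NKT2-gated cells 3 of 55 were higher and 0 lower (2.09% and 2.46% of all genes): Fasl on 55 against 3 UMIs, Bcl2a1a on 66 against 4 UMIs, and Bik at 1.68-fold. Among those with an iNKT V beta 0 of 52 counted genes passed in either direction. There Fasl (9.68-fold, 35 against 2 UMIs) and Bcl2a1a (4.70-fold, 34 against 4 UMIs) lay on the higher side in BM + Spl. Both had too few UMIs to be counted by the rule. Bik, at 1.4965-fold on 46 and 17 UMIs, was just short of it.

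Likeness of pattern was measured as Pearson's r of log2(CPM + 1), centred within each library, over 15 points, the 5 compared gates in 3 libraries, and among 9556 genes. The points share libraries and differ in depth, so r is a description. The genes closest to Bcl2 were Gfod1 (0.954), Adora2a (0.952) and Sytl2 (0.951), and those closest to Bcl2l11 were Tsc22d3 (0.974), a target of glucocorticoids, Skap2 (0.967) and Cd101 (0.965). Mcl1 lay closest to Ltb (0.985), Cyth4 (0.979) and Junb (0.978), and Bcl2l1 to Eea1 (0.971), Gabarapl1 (0.967) and Rbpj (0.944). Among the members themselves, r was 0.953 for Mcl1 and Bcl2a1b, 0.896 for the A1 copies, 0.844 for Mcl1 and Bcl2l11, 0.495 for Bcl2 and Bcl2l11, and -0.793 for Bcl2l11 and Bak1. Pmaip1 had too few UMIs for this measure.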

How the data were processed

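The authors deposited, for each of 3 droplet libraries, a matrix of UMI counts (whole numbers, not normalized) with its gene and barcode lists, aligned to mm10. Per the file headers the C57BL/6 matrix came from Cell Ranger 3.0.2 and both BMT matrices from Cell Ranger 7.0.0, and Seurat 4.0.2 is named in the submitters' processing notes. The kit (3′ or 5′) of each library and the use of intronic reads are not given in the sources used here. Deposited cells numbered 4613, 5986 and 5573 and deposited UMIs 60600408, 35041153 and 43383960 in C57BL/6, BM only and BM + Spl.

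UMIs were summed over cells of a gate and scaled to CPM over the shared gene identifiers. Gates were set by lists of 6 markers. NKT1, NKT2 and NKT17 needed 2 detected markers and more than either other list, after cycling, interferon, Treg, CD8, CD4+CD8+, B, plasmacytoid dendritic and myeloid cells had been taken out. NKT1 markers were Tbx21, Cxcr3, Il2rb, Nkg7, Xcl1 and Klrd1. NKT2 markers were Zbtb16, Il17rb, Il4, Il13, Pdcd1 and Gata3. NKT17 markers included Il23r, Il1r1, Blk, Ccr6 and Tmem176a, and 1 item is not reported here. Levels have exact Poisson intervals and ratios exact conditional (Clopper-Pearson) intervals at 95%. Gates with under 50 cells were not compared, apart from NKT17-gated cells with an iNKT V beta, 38 in BM + Spl. Doublets were kept, since no step that removes them is stated, and free RNA was not estimated. The members, lists and gates were chosen with earlier results of these data known. Named are all 10 members, up to 3 genes of the pathway lists with the largest and 3 with the smallest ratio in a comparison, and the 3 genes most like a member in pattern. Python 3.11.15, numpy 2.4.6, scipy 1.17.1, pandas 2.3.3 and matplotlib 3.10.9 were used, and the ratios were tested on simulated data.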

Additional observations from a re-analysis of the deposited data

Results flagged for a closer look

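Some members had opposite directions in parallel comparisons, and none of these differences was tested, since each condition was 1 library. Bcl2a1d, NKT1-gated over NKT2-gated, had a log2 ratio of -0.21 in BM only and 0.82 in BM + Spl, with 881 and 473 of its NKT1 UMIs from cells with an iNKT V beta. The sum of the A1 copies was higher in NKT1-gated cells of both libraries. It stood at 280 against 225 CPM in BM only and 578 against 299 CPM in BM + Spl. The opposite direction thus lay in the value of 1 copy, which is uncertain. Bcl2, BM + Spl over BM only, was on the higher side in NKT17-gated cells (0.74, on 36 and 55 UMIs) and on the lower side in NKT1-gated (-0.22), cycling (-0.42) and interferon-gated cells (-1.13, on 39 and 50 UMIs).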

How the results depend on the processing

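No member's called direction reversed under any alternative run. Of the recomputed counts of members past 1.5-fold, 81 stayed within 1.5 times the count in the report and 16 did not. Log2 ratios were recomputed too, with 795 rated the same and 74 moved. Of the recomputed levels, 63 were rated the same and 57 moved, so levels depended more on the processing than ratios did. In NKT1-gated cells, BM + Spl over BM only, the same 5 members passed in every alternative except thinning cells to 2000 UMIs, which lost Bbc3, and restriction to cells with an iNKT V beta, which added Bak1 and Bcl2. Thinned cells gave 1 member over all kept cells in place of 2, 1 in NKT2-gated (Bcl2l1) in place of 0, 1 in NKT17-gated in place of 3, and 0 in cycling and in interferon-gated cells in place of 1 and 2. Gates set on thinned cells also gave 0 in cycling and 0 in interferon-gated cells, and 6 in place of 3 for NKT1-gated over NKT2-gated cells of C57BL/6. The mean of per-cell CPM gave 1 in NKT2-gated (Pmaip1) and 1 in NKT17-gated cells. Leaving out the 5% of cells with most UMIs gave 3 in cycling and 1 in interferon-gated cells, no minimum of UMIs gave 2 in cycling cells, and cells with an iNKT V beta gave 1 in NKT17-gated, 2 in cycling and 0 in interferon-gated cells. The cause was not tested. Beyond the shares given above, none over all genes is given for these runs, so the counts show only which calls moved. For NKT1-gated over NKT2-gated cells of BM + Spl, thinned cells left the count at 7 but with Bbc3 in place of Pmaip1. The restriction of the NKT1 against NKT2 comparison, the pathway genes, the sum of the A1 copies and the marker steps to iNKT V beta cells and the exclusion of barcodes found in both BMT libraries were chosen after seeing the data, and the latter moved no count. No paired analysis was possible because each group holds 1 library. With 1 library a condition the spread between mice is unknown, Pmaip1 and the NKT17, cycling and interferon gates rest on few UMIs, and thinning lowers every count further.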
